A study of Mus musculus with 24 samples.

Results

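The 10 genes described here are used to follow the epithelial-mesenchymal transition (EMT) and were read across mammary tumorigenesis in mice: the cadherins Cdh1 and Cdh2, the mesenchymal proteins Vim and Fn1, and the transcription factors Snai1, Snai2, Twist1, Twist2, Zeb1 and Zeb2. They were chosen by name, through the gene symbol of each Ensembl gene in the GENCODE M1 annotation, and all 10 were found among the 37991 genes of the count table. The PyMT samples were mammary tumors of F1 females on the FVB background, heterozygous for a transgene that drives the polyoma virus middle T antigen from the MMTV promoter in mammary epithelium. The controls were normal mammary glands of FVB females of the same age without the transgene. For each genotype 3 mice were taken at week 6 (hyperplasia), week 8 (adenoma/MIN, mammary intraepithelial neoplasia), week 10 (early carcinoma) and week 12 (late carcinoma), which gave 24 samples in 8 groups. No sample was sorted, so that each one held the RNA of all the cells of the tissue, and a normal gland of this age is mostly fat with ducts, vessels and fibroblasts.

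In EMT, epithelial cells give up their junctions and polarity and take on the shape and motility of mesenchymal cells. The SNAI, TWIST and ZEB factors bind E-box sequences in promoters such as that of Cdh1 and repress epithelial genes, while Vim, Fn1 and Cdh2 are commonly read as signs that the change has taken place. The same mesenchymal genes are also made by fibroblasts, pericytes, endothelial cells and several other cells of a normal gland, whatever the state of the epithelium.

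Over all weeks, every one of the 9 genes that could be tested differed between PyMT tumors and FVB glands. By the same thresholds 25.7% of all tested genes differed, 8.51% higher and 17.2% lower in PyMT. Cdh1, the adhesion protein of epithelial junctions, was 2.52-fold higher in PyMT, while the other 8 were lower, from 3.40-fold for Fn1 to 12.7-fold for Twist2. Zeb2 gave the smallest p of the 9 and was 5.33-fold lower. Zeb1 had a count of 0 in all 24 samples and gave no value to compare. Between weeks, no EMT gene passed the test within either genotype.

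The total count per sample lay between 6969375 and 13516601, with a median of 8280269. Weakly expressed genes had counts in packets of 8 to 25 reads in 13 libraries (6 PyMT and 7 FVB), and all 3 PyMT libraries of week 6 were among them. The normalized count given for each sample below is the count divided by DESeq2's size factor of that library. A gene was tested when it reached 1 CPM (a count scaled to library size) in at least 12 of the 24 samples, which 14918 genes did, and 9 of the 10 EMT genes passed. Calls came from the quasi-likelihood test of edgeR and needed more than a 2-fold difference and, after Benjamini-Hochberg adjustment over the whole set of tested genes, p below 0.05. Replicates were separate mice, 3 in each group.

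The promoters of the EMT factors and of Vim are shown because these genes were lower together in PyMT. RefSeq start sites were at hand for 5 of the 10 genes (8 starts, 4 of them of Zeb2), and the 250 bases before each start were read on GRCm38.p6, another build than the mm9 of the counts. Cdh1, Cdh2, Fn1, Snai2 and Zeb1 had no entry. Capitals mark 3 motifs. The E-box of the kind that SNAI and ZEB factors bind was searched as CAGGTG, the TATA box as TATAAA and the CCAAT box by the letters of its name. All were searched on both strands, so that the reverse complement of each is in capitals too, and no marked motif overlaps another. Each sequence runs 5′ to 3′ on the strand of its gene and ends at the base before the start.
Snai1: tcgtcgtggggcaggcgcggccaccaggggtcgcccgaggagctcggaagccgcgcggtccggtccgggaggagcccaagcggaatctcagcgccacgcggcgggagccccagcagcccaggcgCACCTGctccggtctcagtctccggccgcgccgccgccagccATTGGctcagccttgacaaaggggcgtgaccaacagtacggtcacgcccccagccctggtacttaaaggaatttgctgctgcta
Twist1: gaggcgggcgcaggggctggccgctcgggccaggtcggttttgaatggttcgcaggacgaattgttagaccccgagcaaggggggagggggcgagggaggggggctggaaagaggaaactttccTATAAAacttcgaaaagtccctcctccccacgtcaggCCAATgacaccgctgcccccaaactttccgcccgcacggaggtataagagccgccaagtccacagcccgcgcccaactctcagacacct
Twist2: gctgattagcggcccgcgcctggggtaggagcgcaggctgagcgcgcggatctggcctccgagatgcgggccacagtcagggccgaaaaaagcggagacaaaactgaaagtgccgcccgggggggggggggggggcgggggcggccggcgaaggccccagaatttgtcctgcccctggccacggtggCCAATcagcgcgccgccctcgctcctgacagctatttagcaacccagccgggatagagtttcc
Zeb2: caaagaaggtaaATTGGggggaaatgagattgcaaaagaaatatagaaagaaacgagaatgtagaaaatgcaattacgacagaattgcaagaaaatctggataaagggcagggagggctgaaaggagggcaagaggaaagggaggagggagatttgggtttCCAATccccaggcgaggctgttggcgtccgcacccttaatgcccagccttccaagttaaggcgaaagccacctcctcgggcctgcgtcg
Vim: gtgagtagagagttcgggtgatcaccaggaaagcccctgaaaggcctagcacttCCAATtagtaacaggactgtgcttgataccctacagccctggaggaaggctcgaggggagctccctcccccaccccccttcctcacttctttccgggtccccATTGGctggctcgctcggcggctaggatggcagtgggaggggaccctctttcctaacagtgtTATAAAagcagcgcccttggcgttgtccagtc

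The Snai1 sequence lies on the plus strand at chr2:167537945-167538194, Twist1 on the plus strand at chr12:33957421-33957670 and Twist2 on the plus strand at chr1:91801211-91801460. Vim lies on the plus strand at chr2:13574061-13574310 and the Zeb2 start shown, the most upstream of its 4, on the minus strand at chr2:45117443-45117692. The E-box was present in 1 of the 8 sequences, that of Snai1, where its first letter stood 126 bases before the start. Among the same stretch of all 32851 RefSeq start sites, 17.2% held it. A TATA box stood 32 bases before the start of Vim and 126 bases before that of Twist1, against 12.4% of all start sites with one. The CCAAT box was present in all 5 sequences shown and in none of the other 3 Zeb2 starts, against 33.8% of all start sites. The Snai1 stretch was 70.0% G and C, the Zeb2 stretch 49.6%, and the median start site 52.4%. A match describes these letters only, and no binding was measured.

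Cdh1, which encodes E-cadherin, was the only member that was higher in PyMT (chr8:109127251-109194146 on mm9, plus strand). Its normalized counts at week 6 were 3543, 2735 and 4188 in the PyMT samples and 1043, 2152 and 2408 in the FVB samples. The adenomas of week 8 held 3912, 5474 and 4624 and the FVB glands of that age 589, 2203 and 2703. The PyMT samples lay above the FVB samples at both weeks, with 1 low FVB sample at week 8.

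In early carcinoma Cdh1 stood at 4084, 3499 and 4291 in PyMT and at 1691, 1559 and 1142 in FVB. In late carcinoma the values were 3765, 4248 and 4459 against 1060, 1965 and 1143. Over all weeks the lowest PyMT sample (2735) was above the highest FVB sample (2703), so that the genotypes did not overlap. The log2 fold change was 0.90 ± 0.33 (SE, n = 3 against 3; edgeR adjusted p = 0.117) at week 6 and 1.36 ± 0.49 (edgeR adjusted p = 0.115) at week 8, and neither was called. Cdh1 rose in early carcinoma by 1.49 ± 0.23 (edgeR adjusted p = 0.00408) and in late carcinoma by 1.63 ± 0.26 (edgeR adjusted p = 0.00295). With 12 against 12 samples and week as a factor, the increase was 1.33 ± 0.19 (edgeR adjusted p = 2.69e-06).

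The second cadherin, Cdh2 (N-cadherin), is an adhesion protein of neurons, muscle and fibroblasts (chr18:16747386-16967755, minus strand). Its mean level per kilobase was the lowest of the 9 tested genes in both genotypes, although in PyMT not beyond the spread of the next ones. PyMT samples held 38.3, 34.4 and 10.2 normalized counts at week 6 and FVB samples 119, 222 and 170. In early carcinoma the values were 29.4, 28.3 and 11.1 against 115, 291 and 225. Both weeks left a clear gap between the genotypes, and Cdh2 fell by 2.65 ± 0.61 on the log2 scale at week 6 (edgeR adjusted p = 0.0279) and by 3.14 ± 0.61 at week 10 (edgeR adjusted p = 0.0114). The week 6 call was lost without PyMT replicate 1 (edgeR adjusted p = 0.0625) or 3 (0.0570), and without FVB replicate 2 (0.113) or 3 (0.0818).

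At week 8 Cdh2 stood at 33.4, 39.4 and 54.7 in PyMT against 110, 137 and 111 in FVB, a log2 fold change of -1.47 ± 0.49 that was not called (edgeR adjusted p = 0.0940). In late carcinoma the PyMT samples (40.1, 40.6 and 30.5) overlapped the FVB samples (110, 18.9 and 66.7), with a log2 fold change of -0.77 ± 0.67 (edgeR adjusted p = 0.437). The second FVB sample of week 12 was the only FVB sample that fell into the PyMT range of all weeks, 10.2 to 54.7. Over all weeks Cdh2 fell by 2.02 ± 0.35 (edgeR adjusted p = 3.99e-05), and the genotypes overlapped.

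Vim, the intermediate filament protein of mesenchymal cells, was the steadiest of the lower genes (chr2:13495554-13504453, plus strand). PyMT hyperplasias held 1583, 1546 and 1753 normalized counts of it, and FVB glands of that age 5647, 4862 and 5966. Late carcinomas held 2019, 1051 and 1552, and their controls 4460, 4972 and 7376. The samples of weeks 8 and 10 ran from 1113 to 2353 in PyMT and from 5061 to 9149 in FVB. The highest PyMT sample of any week had 2353 and the lowest FVB sample 4460, so that no sample of either genotype overlapped the other. Vim was called at all 4 weeks, with falls of 1.76 ± 0.19, 1.93 ± 0.36, 2.14 ± 0.29 and 1.82 ± 0.29 on the log2 scale from week 6 to week 12 (edgeR adjusted p = 0.00195, 0.0162, 0.00251 and 0.00288). The call of week 8 was lost without PyMT replicate 1 (edgeR adjusted p = 0.0791). Over all weeks it fell by 1.92 ± 0.15 (edgeR adjusted p = 1.76e-10).

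Fn1 encodes fibronectin, a glycoprotein of the extracellular matrix (chr1:71632094-71699774, minus strand). In hyperplasia the PyMT counts of Fn1 were 4832, 2971 and 6171, and the FVB counts 19166, 19052 and 23292. By early carcinoma they were 3370, 5126 and 3101 against 13216, 10438 and 16477. These weeks had the tightest FVB values, and Fn1 fell by 2.14 ± 0.31 at week 6 (edgeR adjusted p = 0.00481) and by 1.74 ± 0.27 at week 10 (edgeR adjusted p = 0.00436).

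The adenomas held 3712, 2836 and 9625 of Fn1 and the controls of week 8 held 10791, 24075 and 33902. In late carcinoma it was 7887, 3373 and 4147 against 8669, 15715 and 9132. The third PyMT sample of week 8 and the first of week 12 came close to the lowest FVB samples without reaching them. The log2 fold changes of -2.06 ± 0.58 (edgeR adjusted p = 0.0610) and -1.08 ± 0.36 (edgeR adjusted p = 0.0566) were not called. Over all weeks Fn1 fell by 1.77 ± 0.23 (edgeR adjusted p = 7.82e-07), and the genotypes overlapped across weeks.

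**Figure D1:**
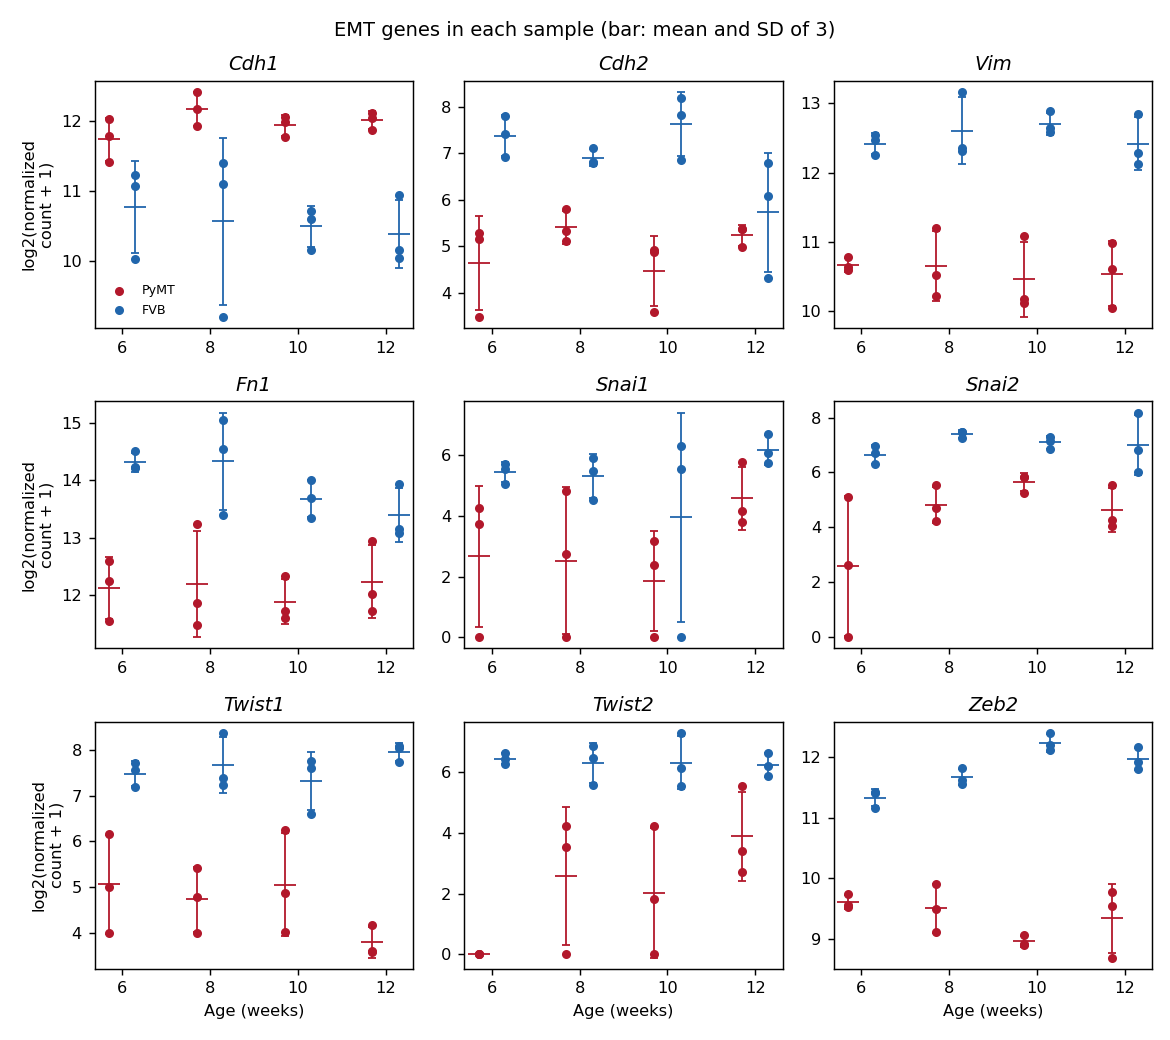
Normalized counts of the 9 tested EMT genes in each sample, as log2 of the normalized count plus 1 (y axis), against age in weeks (x axis), for PyMT (red) and FVB (blue), with horizontal bars for the mean and vertical bars for the SD of 3 samples. PyMT lies above FVB for Cdh1 at every week and below it for Vim and Zeb2 at every week, and the zeros of Snai1, Snai2 and Twist2 sit at the foot of their panels.

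The factors of the SNAI family, zinc finger repressors of Cdh1, were sparsely counted. Snai1 (chr2:167363695-167368314, plus strand) ran from 0 to 53.5 in the PyMT samples, with 3 samples at 0, and from 0 to 103 in the FVB samples, with 1 sample at 0. It stood at 12.5, 0 and 18.2 in PyMT against 32.5, 46.3 and 52.0 in FVB at week 6, and at 53.5, 17.1 and 12.9 against 52.5, 103 and 66.7 at week 12. The groups did not overlap at week 6 but overlapped at the 3 later weeks. No single week was called, with log2 fold changes of -2.05 ± 1.35, -1.84 ± 1.46, -3.25 ± 1.98 and -1.37 ± 0.67 (edgeR adjusted p = 0.376, 0.462, 0.320 and 0.169). Over all weeks Snai1 fell by 2.11 ± 0.71 (edgeR adjusted p = 0.0151), the least certain of the 9 genes.

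Snai2, also called Slug, is known in the normal gland as a factor of basal cells (chr16:14705945-14709488, plus strand). The adenomas held 24.8, 17.8 and 45.3 normalized counts of it and the glands of that age 178, 176 and 150. Late carcinomas held 18.5, 45.9 and 15.7 and their controls 63.2, 289 and 113. The PyMT samples were lower at both weeks without overlap, and Snai2 fell by 2.48 ± 0.52 at week 8 (edgeR adjusted p = 0.0235) and by 2.49 ± 0.69 at week 12 (edgeR adjusted p = 0.0292).

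At week 6 Snai2 had 0, 5.21 and 33.5 in PyMT against 77.7, 103 and 123 in FVB, and at week 10 it had 56.1, 56.6 and 37.5 against 141, 154 and 114. The groups stood apart, yet the log2 fold changes of -2.91 ± 1.26 (edgeR adjusted p = 0.186) and -1.40 ± 0.49 (edgeR adjusted p = 0.0967) were not called. The call of week 8 was lost without PyMT replicate 1 (edgeR adjusted p = 0.0939) and without FVB replicate 2 (0.0800) or 3 (0.0627), and that of week 12 without PyMT replicate 1 (0.0857) or 3 (0.104) and without FVB replicate 2 (0.0918). Across the weeks the highest PyMT sample (56.6) was below the lowest FVB sample (63.2). The fall over all weeks was 2.32 ± 0.42 (edgeR adjusted p = 5.37e-05).

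Twist1 and Twist2 are basic helix-loop-helix factors of mesoderm and its derivatives. Twist1 (chr12:34642536-34644682, plus strand) stood at 11.3, 17.1 and 11.1 in the PyMT late carcinomas and at 213, 271 and 260 in FVB glands of that age. At week 8 it stood at 26.7, 15.0 and 41.8 against 328, 166 and 150. Late carcinoma showed the widest gap, with a fall of 4.18 ± 0.36 (edgeR adjusted p = 0.000296), an 18.1-fold difference, after 2.91 ± 0.57 at week 8 (edgeR adjusted p = 0.0189). The call of week 8 was lost without PyMT replicate 1 (edgeR adjusted p = 0.0800) or FVB replicate 2 (0.0532).

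In hyperplasia Twist1 was 15.1, 31.3 and 70.9 against 144, 208 and 187 in the controls, and in early carcinoma it was 28.5, 75.5 and 15.4 against 215, 194 and 95.5. The values did not overlap at either week, and the log2 fold changes of -2.18 ± 0.61 (edgeR adjusted p = 0.0553) and -2.05 ± 0.70 (edgeR adjusted p = 0.0876) missed the threshold. Over all weeks the highest PyMT sample had 75.5 and the lowest FVB sample 95.5, and Twist1 fell by 2.80 ± 0.34 (edgeR adjusted p = 2.69e-07).

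Twist2 (chr1:93698038-93744605, plus strand) was at 0 in all 3 PyMT samples of week 6, against 84.6, 98.0 and 74.9 in FVB. It was called there (edgeR adjusted p = 0.00734, and 0.00852 with counts divided by packet size). All 3 of those PyMT libraries had packet sizes, of 13 to 25 reads, and against a floor of 3 packets in each of them Twist2 was at least 1.87-fold lower, which is under the 2-fold that a call needed. Adenomas held 10.5, 0 and 17.6 of it and the controls of that week 46.7, 115 and 87.0. At week 10 it had 17.8, 0 and 2.56 against 45.3, 68.1 and 153, and at week 12 it had 45.2, 9.62 and 5.54 against 71.3, 56.7 and 97.3. PyMT was lower without overlap at each of these weeks, but the log2 fold changes of -3.07 ± 1.24, -3.60 ± 1.44 and -1.86 ± 0.81 were not called (edgeR adjusted p = 0.154, 0.135 and 0.125). Over all weeks Twist2 fell by 3.66 ± 0.77 (edgeR adjusted p = 0.000327), and its highest PyMT sample (45.2) was just under its lowest FVB sample (45.3).

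The zeros of these genes and the packets went together. All 10 zero counts of the tested EMT genes, 5 of Twist2, 4 of Snai1 and 1 of Snai2, lay in 6 libraries whose packet sizes were 13 to 25. In the 6 PyMT and 5 FVB libraries without a packet size, all 9 genes still passed the test over all weeks in the same direction. With all 24 samples 25.7% of all tested genes were called, and the share in this smaller fit is not given here. The log2 fold changes in it were -3.05 for Twist2 (edgeR adjusted p = 0.00329), -1.86 for Snai1 (0.0227), -1.71 for Snai2 (0.0146) and -1.28 for Cdh2 (0.0299).

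Zeb1 and Zeb2 are zinc finger and homeobox repressors of epithelial genes. Zeb1 (chr18:5591858-5775465, plus strand) was listed at 0 in every sample, as were 4061 of 22337 protein-coding genes of the table (18.2%). Its gene model overlaps Gm10125 and Gm16147 on the opposite strand and AC127028.1 on the same strand. Among the other EMT genes, Cdh2 overlaps Gm15485, Fn1 overlaps Apol7d and Zeb2 overlaps Gm13476 on the opposite strand, and Zeb2 overlaps AL929120.1 on the same strand. Reads in a same-strand overlap could belong to either gene. No level of Zeb1 was read from this row, and what made it 0 was not tested.

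Zeb2 (chr2:44839154-44972915, minus strand) showed the clearest separation of the factors. The hyperplasias held 850, 733 and 755 normalized counts of it and the controls 2749, 2302 and 2706. By early carcinoma the tumors held 478, 531 and 479 and the controls 5403, 4436 and 4718. The PyMT values were lower and the FVB values higher at week 10 than at week 6, and the samples of each group stayed close together.

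At week 8 Zeb2 stood at 716, 551 and 960 against 3158, 3031 and 3611, and at week 12 at 872, 746 and 411 against 3895, 3583 and 4621. The highest PyMT sample of all weeks had 960 and the lowest FVB sample 2302. Zeb2 fell by 1.74 ± 0.18, 2.12 ± 0.26, 3.24 ± 0.19 and 2.53 ± 0.28 on the log2 scale from week 6 to week 12 (edgeR adjusted p = 0.00166, 0.00538, 0.000109 and 0.000590). The fall at week 10 was 9.46-fold. Over all weeks it was 2.41 ± 0.17 (edgeR adjusted p = 3.03e-11).

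**Figure D2:**
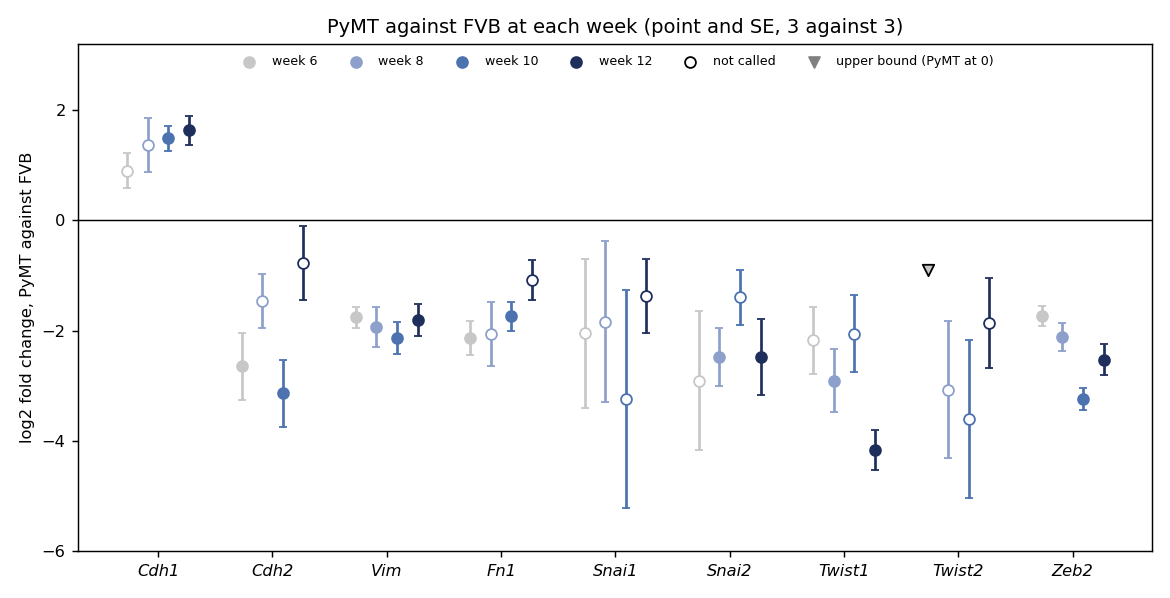
log2 fold change of PyMT against FVB (y axis) for the 9 tested EMT genes at weeks 6, 8, 10 and 12 (shades), with the SE of 3 against 3 samples. Filled points were called, open points were not, and the triangle marks the bound of -0.90 for Twist2 at week 6 (called), where PyMT was at 0. Cdh1 lies above 0 at every week and the other 8 genes below it.

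Counted by stage, 5 of the 9 genes fell at week 6 (Cdh2, Vim, Fn1, Twist2 and Zeb2) and none rose, in a comparison where 10.0% of all tested genes were called, 3.58% higher and 6.46% lower in PyMT. In adenoma/MIN 4 fell (Vim, Snai2, Twist1 and Zeb2), against 9.95% of all genes called, 3.57% higher and 6.37% lower. In early carcinoma Cdh1 rose and 4 fell (Cdh2, Vim, Fn1 and Zeb2), against 13.9% called, 4.83% higher and 9.09% lower. In late carcinoma Cdh1 rose and 4 fell (Vim, Snai2, Twist1 and Zeb2), against 20.7% called, 7.75% higher and 13.0% lower. Over all weeks 1 rose and 8 fell, against 25.7% of all genes called, 8.51% higher and 17.2% lower. Vim and Zeb2 were the only ones called at every week.

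The count of calls at week 8 depended on single libraries. Without the first PyMT replicate of that week, 1 gene was called (Zeb2), and Vim and Twist1 went to edgeR adjusted p = 0.0791 and 0.0800. Without the second FVB replicate, 2 were called. The median log2 fold change of the 9 genes was -2.14, -2.06, -2.14 and -1.82 from week 6 to week 12 and -2.11 over all weeks, and with Twist2 at its bound that of week 6 was -2.05. Over all tested genes the medians were -0.08, -0.04, 0.01, 0.00 and -0.03. The weeks shared no control samples, but the comparison over all weeks reuses the samples of each week.

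The share of genes whose groups did not overlap was also set beside that of all genes. At week 6, 8 EMT genes had all PyMT samples below all FVB samples, as did 20.4% of all tested genes, and Cdh1 had them above, as did 16.2%. In adenoma/MIN 7 stood below (21.7% of all genes) and Cdh1 above (18.4%). Early carcinoma also had 7 below (21.6%) and Cdh1 above (18.9%). Late carcinoma had 6 below (25.2%) and Cdh1 above (21.5%). Over all 12 against 12 samples, 5 genes stood wholly below (Vim, Snai2, Twist1, Twist2 and Zeb2), as did 7.22% of all tested genes, and Cdh1 stood wholly above, as did 4.67%.

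Whether these genes moved from one tumor stage to the next was asked of all 24 samples in 1 model. Within PyMT none of the 9 passed, nor did any other gene (0% of 14918 called), although 2 of them and 597 of all genes had an unadjusted p under 0.05. Within FVB none of the 9 passed (0.00670% of all genes called, 1 gene), with 1 of them and 635 of all genes at an unadjusted p under 0.05. A difference between genotypes that itself differed by week was called for none (0% called), with 3 of the 9 and 494 of all genes at an unadjusted p under 0.05. Under DESeq2 1 of the 9 was called within PyMT, where 88 of 14918 genes were called, and none within FVB. DESeq2 also called 1 of the 9 for a difference that differed by week, where 17 of 14918 genes were called.

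Zeb2 had the smallest unadjusted p of the 9 genes for a genotype difference that differed by week (0.000824) and for a change within FVB (0.00598). Its PyMT level was lower in early carcinoma than in adenoma/MIN by a log2 difference of -0.58 ± 0.23 (edgeR adjusted p = 1.00), and its FVB level was higher by 0.56 ± 0.23 (edgeR adjusted p = 0.711). The log2 difference between genotypes was lower at week 10 than at week 8 by -1.14 ± 0.32 (edgeR adjusted p = 1.00). For all weeks at once this test had an adjusted p of 1.00 by edgeR and of 0.0190 by DESeq2.

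Twist2 had the smallest unadjusted p within PyMT (0.00535). Its test across PyMT weeks had an adjusted p of 0.706 by edgeR and of 0.0264 by DESeq2, and it rests on week 6, where all 3 PyMT libraries were at 0 and had packet sizes of 13 to 25. Twist1 in PyMT was lower at week 12 than at week 6 by -1.58 ± 0.61 (edgeR adjusted p = 0.550). Cdh1 and Vim in PyMT differed between these weeks by 0.26 ± 0.38 and -0.08 ± 0.30 (edgeR adjusted p = 0.987 and 0.999), values smaller than their errors.

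Levels were compared between genes as CPM per kilobase of exon. In FVB glands Vim stood first at 303 ± 65.8 (SD, n = 12), followed by Fn1 at 238 ± 105 and Cdh1 at 41.9 ± 16.7. In PyMT tumors Cdh1 stood first at 105 ± 17.4, followed by Vim at 79.8 ± 21.8 and Fn1 at 67.6 ± 31.0. Cdh1 thus had the third level in the normal gland and the first in the tumors. Vim and Fn1 lay within one SD of each other in both genotypes.

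Of the factors, Zeb2 had the highest level per kilobase in both genotypes, at 28.0 ± 7.01 in FVB and 5.18 ± 1.40 in PyMT. In FVB, Twist1 followed at 14.7 ± 4.51. There Snai2 (8.05 ± 3.35) and Twist2 (7.30 ± 2.61) lay within their SDs, then came Snai1 (3.63 ± 1.89) and Cdh2 (2.05 ± 1.07). In PyMT, Snai2 (1.74 ± 1.11), Snai1 (0.975 ± 1.10), Twist2 (0.808 ± 1.17) and Cdh2 (0.476 ± 0.183) could not be placed in order beyond their spread.

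**Figure D3:**
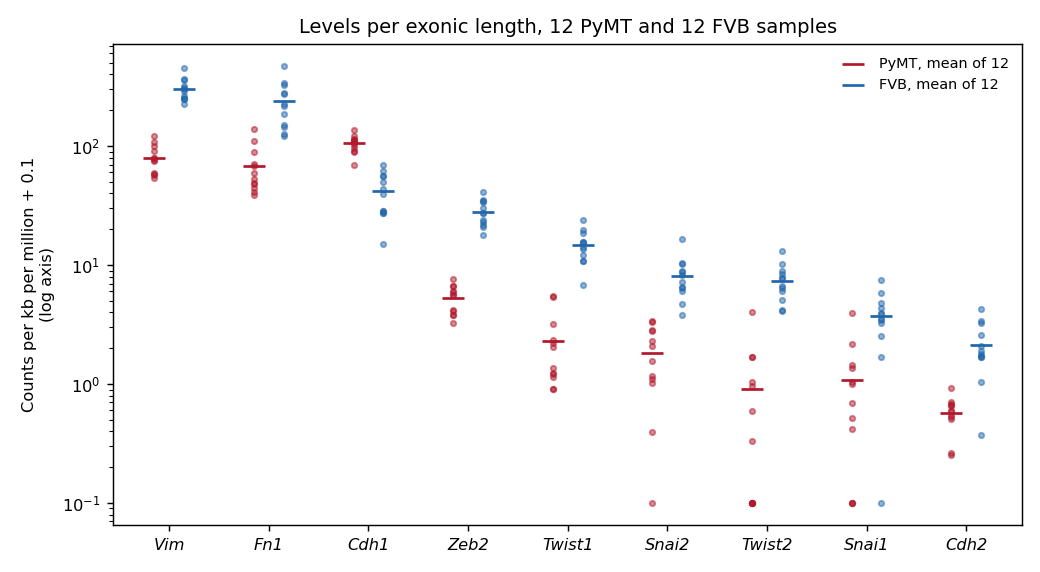
Level of the 9 EMT genes as CPM per kilobase of exon plus 0.1 (y axis, log scale), in 12 PyMT (red) and 12 FVB (blue) samples, with the mean of 12 as a bar. Genes are ordered by their FVB mean. Cdh1 goes from the third level in FVB to the first in PyMT, while every factor lies lower in PyMT.

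Within each library the ratio of a mesenchymal gene to Cdh1 does not depend on the scaling between libraries. Vim per Cdh1, both per kilobase, ran from 4.43 to 17.4 in the FVB samples (median 7.57) and from 0.427 to 1.21 in the PyMT samples (median 0.776). Fn1 per Cdh1 ran from 3.67 to 10.1 in FVB (median 5.08) and from 0.284 to 1.15 in PyMT (median 0.558). The genotypes were far apart in both ratios. Cdh2 per Cdh1 ran from 0.00546 to 0.112 in FVB and from 0.00138 to 0.00713 in PyMT, where the lowest FVB sample reached into the PyMT range.

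The PyMT ratios did not separate by stage. Vim per Cdh1 was 0.934 ± 0.152 (SD, n = 3) in hyperplasia, 0.719 ± 0.285 in adenoma/MIN, 0.757 ± 0.394 in early and 0.739 ± 0.287 in late carcinoma. The spread of each later week took in the means of the others. Zeb2 per Vim was 0.0730 ± 0.00812 in PyMT and 0.0716 ± 0.00255 in FVB at week 6, and 0.0552 ± 0.0156 against 0.111 ± 0.0170 at week 10.

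The level of Cdh1 was then set against other epithelial genes, since a tumor holds more epithelium than a normal gland. Per Epcam, an adhesion protein of epithelial cells, Cdh1 stood at 0.330 ± 0.0572 (SD, n = 12) in PyMT and at 0.550 ± 0.203 in FVB. Per Krt8, a keratin of luminal cells, it stood at 0.302 ± 0.0634 in PyMT and at 0.419 ± 0.143 in FVB, and per its partner Krt18 at 0.296 ± 0.0668 and 0.332 ± 0.117. The means were lower in PyMT in all 3 ratios, and over all weeks the samples of the genotypes overlapped. Within weeks, Cdh1 per Epcam lay wholly lower in PyMT at week 10 (0.260 to 0.346 against 0.558 to 0.952) and at week 12 (0.293 to 0.359 against 0.378 to 0.488). Cdh1 per Krt8 did so at week 8 (0.205 to 0.373 against 0.405 to 0.584) and at week 10 (0.229 to 0.347 against 0.373 to 0.686), and Cdh1 per Krt18 at week 10 alone (0.243 to 0.364 against 0.435 to 0.475). Per Ctnnd1, the p120 catenin that holds E-cadherin at the membrane, it stood at 1.90 ± 0.326 in PyMT and at 1.06 ± 0.392 in FVB.

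**Figure D4:**
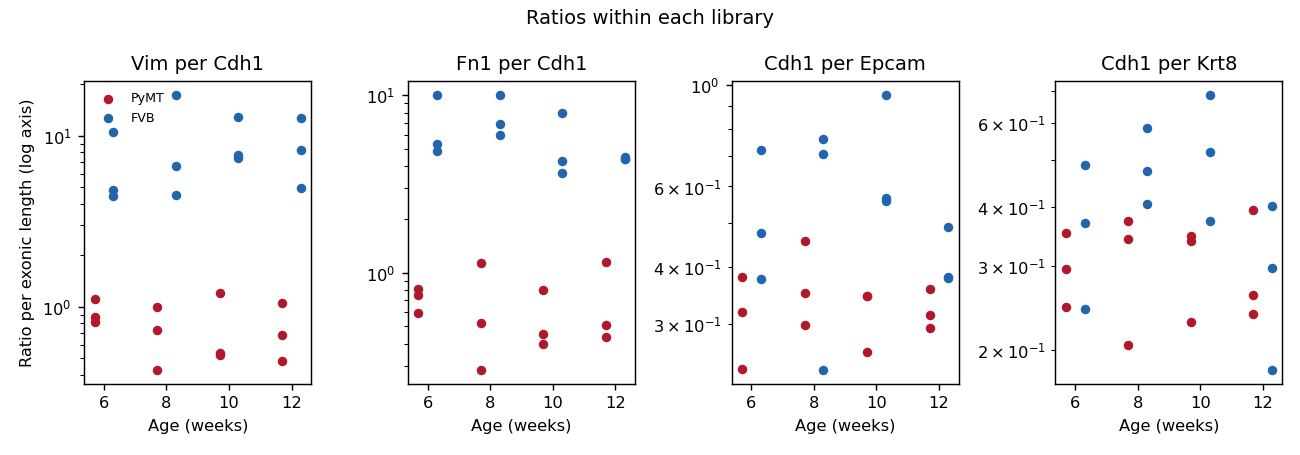
Ratios of levels per kilobase within each library (y axes, log scale) against age in weeks, for PyMT (red) and FVB (blue), 3 samples per group. Vim per Cdh1 and Fn1 per Cdh1 separate the genotypes at every week, with PyMT between 0.284 and 1.21, while Cdh1 per Epcam overlaps at weeks 6 and 8 and Cdh1 per Krt8 at weeks 6 and 12, with PyMT wholly below FVB at their other weeks.

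The EMT genes were read beside lists of cell type markers, because the tissues were not sorted and fewer cells of a type cannot be told apart from less RNA per cell. All 8 fibroblast markers fell over all weeks, by a median of -1.98 (log2), and their summed normalized counts ran from 21641 to 45361 in tumors and from 51846 to 188797 in controls. All 8 endothelial markers fell (median -2.29, sums 821 to 2557 in PyMT and 6185 to 10700 in FVB), as did 5 of 6 pericyte markers (median -2.16) and all 8 adipocyte markers (median -3.95, sums 1062 to 15554 and 50791 to 135818). No marker of these lists was at 0 in all samples. The falls of the 8 EMT genes ran from 1.77 to 3.66 on the same scale, and the part of these cells in them was not tested.

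The lists of the other cell types did not all move alike. Of the 8 macrophage markers 1 fell, the scavenger receptor Cd163, and the median was -0.08. Of the 8 luminal markers 5 rose, led by Elf5 (2.29), Epcam (2.04) and Krt8 (1.72), 2 fell, Esr1 (-2.45) and Prlr (-1.21), and Krt19 (-0.59) was not called. Their sums ran from 23749 to 37878 in tumors and from 10903 to 31588 in controls. Of the 8 basal and myoepithelial markers 5 fell, with the contractile genes Cnn1 (-3.20) and Myh11 (-3.10) and the oxytocin receptor Oxtr (-3.13) lowest, while Krt14 (0.22), Krt5 (0.00) and Trp63 (-0.10) were not called. Of the 10 skeletal muscle markers 9 fell, by a median of -4.67, and their sums spread from 139 to 91316 in PyMT and from 210 to 1461010 in FVB. Of the 8 lymphocyte markers only Ighm was tested, at -2.65.

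Each EMT gene was also set against the mean of these lists on the log2 scale within each sample. Relative to the fibroblast markers, Vim differed between PyMT and FVB by 0.14, Cdh2 by 0.13, Fn1 by 0.27, Snai1 by -0.22 and Zeb2 by -0.36. For Vim this mean was 0.29 ± 0.43 (SD, n = 12) in PyMT and 0.16 ± 0.29 in FVB, and for Zeb2 it was -0.93 ± 0.30 and -0.58 ± 0.46. The differences of all 5 genes were smaller than the larger SD of their groups. An SD here is the spread of single samples and not the error of a mean of 12. A difference below it can therefore still be a real one. Snai2 differed by -0.52 and Twist1 by -0.84, which was also less than their larger SDs of 1.61 and 0.90. Twist2 differed by -2.09, more than its larger SD, and stood at -8.16 ± 1.90 in PyMT and -6.07 ± 0.42 in FVB.

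Against the endothelial markers, Zeb2 differed by -0.05, Snai1 by 0.09, Snai2 by -0.21, Cdh2 by 0.44, Vim by 0.45, Twist1 by -0.53, Fn1 by 0.58 and Twist2 by -1.78. Zeb2 stood at 1.92 ± 0.33 above their mean in PyMT and at 1.96 ± 0.38 in FVB. Against the luminal markers the differences were wide, from -2.47 for Fn1 to -4.84 for Twist2. Cdh1 differed from the luminal markers by 0.77 and from the list of epithelial genes by 0.26, where it stood at 2.24 ± 0.12 in PyMT and 1.98 ± 0.49 in FVB. Of the 8 luminal markers, 5 had positive and 3 negative log2 fold changes over all weeks. Per Epcam, Krt8 and Krt18, all among the 5, the mean of Cdh1 was lower in PyMT, and per Ctnnd1, of the epithelial list, it was higher. All these differences are descriptions and were not tested.

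Genes that are usually read together with EMT were taken from 4 lists, in a comparison where 8.51% of all tested genes were called higher and 17.2% lower. Of 28 epithelial genes, 16 rose over all weeks and none fell, and the median was 1.40 (log2). Epcam rose by 2.04 ± 0.17, Marveld3, a tight junction protein, by 1.92 ± 0.21 and Cldn3, a claudin, by 1.85 ± 0.27 (edgeR adjusted p = 4.07e-10, 4.37e-08 and 3.09e-06). At the other end stood Elf3 (-0.03), the desmosome protein Dsp (-0.16) and the keratin Krt19 (-0.59), which were not called. Cdh1 at 1.33 lay just under the median of this list.

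Of 32 mesenchymal genes, 21 fell and 1 rose (against 17.2% and 8.51% of all tested genes), with a median of -1.54. The lowest were Ddr2, a collagen receptor, at -2.66 ± 0.17, and the smooth muscle genes Acta2 at -2.59 ± 0.23 and Tagln at -2.42 ± 0.22 (edgeR adjusted p = 1.40e-11, 2.18e-09 and 2.73e-09). The gene that rose was Tnc, the matrix protein tenascin C, by 1.26 ± 0.30 (edgeR adjusted p = 0.00119). Cald1 (0.05) and Bgn (-0.34) were the next highest and were not called. Vim at -1.92 and Fn1 at -1.77 lay below the median of the list, and Tnc went against both.

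Of 14 other transcription factors linked to EMT, 10 were tested, 1 rose and 3 fell, and the median was -0.14. Foxc1, a forkhead factor, rose by 2.15 ± 0.22, a 4.44-fold difference (edgeR adjusted p = 1.79e-08). Prrx1, a homeobox factor of mesenchyme, fell by 2.70 ± 0.21 (edgeR adjusted p = 2.15e-10), and Tcf4 also fell. Sox4 (0.93), Sox9 (0.64) and Klf8 (-1.46) were not called. Unlike the tested SNAI, TWIST and ZEB genes, all of which fell, these factors went in both directions.

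Of 15 cofactors and regulators of the EMT factors, 1 rose and 2 fell, with a median of 0.17, and these calls were not more frequent than the 25.7% of all tested genes called. The 3 genes called were Id genes, whose proteins bind helix-loop-helix factors and keep them from DNA. Id2 rose by 2.89 ± 0.19, a 7.41-fold difference (edgeR adjusted p = 1.19e-11), while Id1 fell by 2.22 ± 0.23 and Id3 by 2.43 ± 0.31 (edgeR adjusted p = 2.72e-08 and 4.70e-07). The corepressor genes Rcor1 (0.78) and Ctbp2 (0.74) and the LIM protein gene Jub (-0.81) stayed under the fold threshold.

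**Figure D5:**
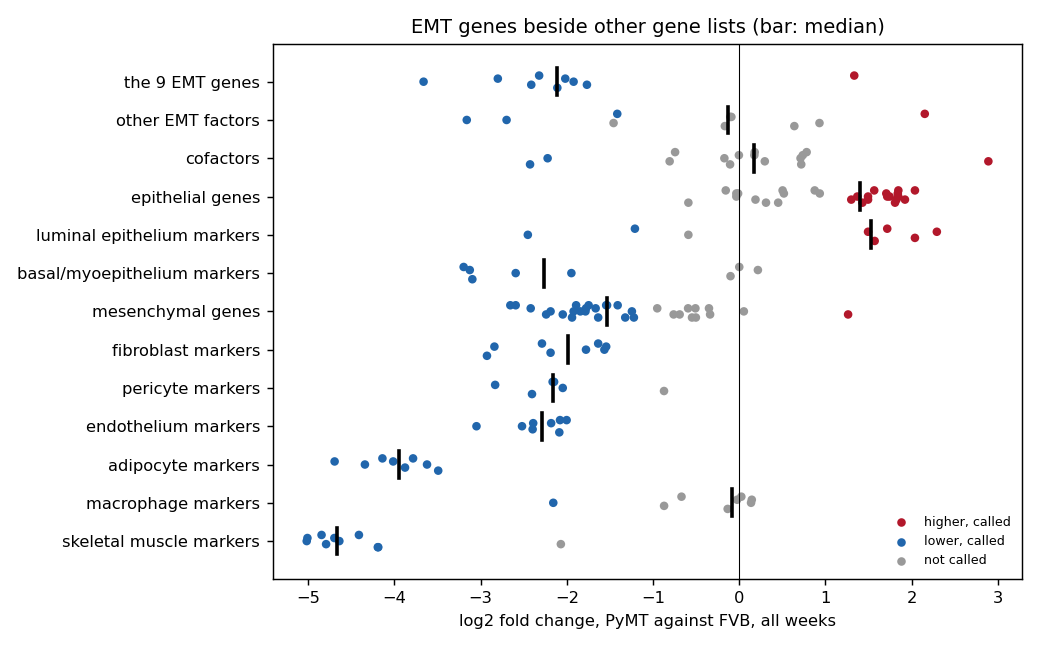
log2 fold change of PyMT against FVB over all weeks (x axis) for each tested gene of the lists (rows), with a bar at the median of each list. Red genes were called higher, blue ones lower and grey ones were not called. The EMT genes show 1 red and 8 blue points, the epithelial genes lie mostly to the right of 0, and the fibroblast, endothelial and adipocyte markers lie wholly to the left.

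The genes most like each EMT gene were found by Pearson correlation of log2(normalized count + 1) over the 24 samples, which share the difference between genotypes, and the values are given without a test. Cdh1 was most like Esrp1, a splicing factor of epithelial cells (0.972), Rplp0 (0.964) and the tight junction gene Cgn (0.958). Zeb2 was most like Ebf1 (0.985), Ccnd2 (0.984) and Ddr2 (0.981). Vim was most like the basement membrane gene Lamc1 (0.962), Heg1 (0.961) and Nid1 (0.961). Fn1 was most like Fstl1 (0.962), the collagen gene Col5a1 (0.945) and Dpysl3 (0.933).

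Within one genotype these correlations were looser for some genes and kept their size for others. Fn1 with Col5a1 was 0.906 in the 12 PyMT samples and 0.690 in the 12 FVB samples, and Cdh1 with Esrp1 was 0.679 and 0.941. Vim with Heg1 was 0.830 among tumors and 0.299 among controls. Twist1 was most like the Notch ligand Jag1 (0.946), the endothelial receptor S1pr1 (0.945) and the endothelial phosphatase Ptprb (0.935). Twist2 was most like Pir (0.956), Bmp1 (0.912) and Sema3a (0.909). Twist2 with Pir was 0.953 among tumors and -0.18 among controls, and Snai2 with Prkcc was 0.882 and 0.0743. The tumor values include the zero counts of Twist2 and Snai2, all in libraries with a packet size. The part of these zeros in the correlations was not tested.

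The remaining genes had weaker or sparser partners. Snai1 was most like Pde1b (0.925), Tbx2 (0.908) and 2010012O05Rik (0.893), Snai2 most like Prkcc (0.913), Ldb2 (0.913) and Adh1 (0.901), and Cdh2 most like Svep1 (0.843), As3mt (0.835) and Mpdz (0.821). Among the EMT genes themselves, Vim and Zeb2 were the closest pair over 24 samples (0.949), with 0.459 in PyMT and 0.461 in FVB. Cdh1 and Zeb2 had -0.828 over 24 samples, and -0.247 in PyMT and -0.197 in FVB. Vim and Fn1 had 0.904 over 24 samples, with 0.850 among tumors and 0.303 among controls.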

How the data were processed

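Directional RNA-seq libraries after removal of ribosomal RNA were made from mammary tumors or glands of 12 PyMT and 12 FVB mice. GSNAP alignments to mm9 went through HTSeq, and the table the authors deposited holds the resulting whole-number counts for 37991 Ensembl genes, without normalization. The release of the gene annotation behind the counts is not given in the sources used here. All 24 columns were matched to samples by name, and GENCODE M1 gave symbols, positions on mm9 and exon lengths (37205 genes). For 2 symbols of the lists with 2 gene identifiers, the one with the larger total count was used. Chi-square per gene between replicates was 19.6 to 223, so that no library was a copy of another of its group. Libraries of different groups were not compared in this way.

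Genes with at least 1 CPM in at least 12 of 24 samples were tested (14918 of 26153 with any count) with edgeR 4.0.16 in R 4.3.3, by quasi-likelihood after TMM scaling, with 3 against 3 samples at each week. The comparison over all weeks took week as a factor. Changes between weeks were tested by F tests of 3 contrasts in a fit of 8 groups. The SE of a log2 fold change was its size over the square root of F. DESeq2 1.42.0 gave size factors and an alternative test. Tables and figures were made in Python 3.11.15 with pandas 2.3.3, NumPy 2.4.6 and matplotlib 3.10.9, and the fits were tested on simulated data. A packet size is a peak, beyond the lowest counts, in the smoothed number of genes at each count. The floor of 3 packets covers counting error only and was set after seeing the data, and reads without molecular identifiers are not independent molecules.

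The genes and lists were chosen with earlier results of these data known. The rule named the 3 highest and 3 lowest log2 fold changes over all weeks from each list (for most cell type lists only counts and medians are given), and for each EMT gene the 3 genes with the highest correlation. Tcf4 was named after its value was seen. The values of 1 gene that this rule names are not reported here. The alternatives were DESeq2, edgeR's likelihood ratio test, RLE or library size scaling, no filter, counts divided by packet size, all 24 samples in 1 fit, a block for the replicate number and each sample left out. The fit without the libraries with a packet size was chosen after seeing the data.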

Additional observations from a re-analysis of the deposited data

How the results depend on the processing

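No EMT gene changed direction under any alternative, and over all weeks all 9 tested genes were called in each of 31 alternative fits. The main fit over all weeks called 25.7% of all tested genes. Of 783 values of single genes under the alternatives, 723 kept their side of the threshold, 15 lost the call and 45 gained one. Week 8 moved most: 4 genes were called by edgeR's quasi-likelihood test, 8 by DESeq2, 8 with counts divided by packet size and 7 by the likelihood ratio test, and with 1 sample left out from 1 to 5. Calls among all genes at that week went from 1484 to 2493, 2615 and 2405, and to 513 without PyMT week 8 replicate 1 and 684 without FVB week 8 replicate 2. At week 10, 5 genes were called, but 8 by DESeq2 and 8 by the likelihood ratio test. Calls among all genes at week 10 went from 2076 to 2918 and 2837. Within PyMT, and for the change of the difference between weeks, 0 genes were called by edgeR and 1 each by DESeq2. Among all 14918 genes DESeq2 called 88 and 17 in these tests. The cause was not tested.

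Scaling to library size only raised the median log2 fold change of all genes by 0.27, 0.24, 0.29 and 0.32 from week 6 to week 12 and by 0.29 over all weeks, and the EMT genes called stayed at 5, 4, 5, 5 and 9. The split of calls among all genes moved with it, at week 6 from 534 higher and 964 lower to 779 and 654, and over all weeks from 1269 and 2571 to 2050 and 2002. Neither the names of the samples nor the methods pair PyMT and FVB samples of one number, and their deviations correlated at -0.03 to 0.18. Samples of different numbers correlated at -0.13 to 0.09. The highest values were those of replicate 3 at weeks 6, 8 and 10 (0.14, 0.18 and 0.16), and what they share was not tested. With the replicate number as a block, calls of the EMT genes changed at weeks 6 and 8 alone. The share of all genes called in those fits is not given here. Cdh2 at week 6 (edgeR adjusted p = 0.0602) and Snai2 at week 8 (0.0516) lost the call under the block, and Fn1 at week 8 gained it (0.0253). The SEs of Snai1 and Twist2 at weeks 8 and 10 were 1.24 to 1.98 on the log2 scale.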
